A study of Mus musculus with 105 samples.

Results

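The 10 interferon-stimulated genes described here were followed through chemically induced liver carcinogenesis in mice: Irf7, Usp18, Isg15, Oas1a, Oas2, Oasl2, Mx1, Rsad2, Ifit1 and Ifit3. The members were taken by gene symbol, and 10 of 10 were found among the 12966 genes of the expression table. The study sequenced liver libraries in 30 groups, from mice given the liver carcinogen diethylnitrosamine (DEN), with wild-type (WT) controls that received DEN as well. The libraries form 2 sets, marked only grp1 and grp2 in the sample titles and called sequencing groups here. The titles do not say what sets them apart. Sequencing group 1 held 60 libraries of WT, SKO (Shp2 knockout, the gene Ptpn11) and IKO (Ikk knockout) livers, with 4 libraries a group. Sequencing group 2 held 45 libraries of its own WT, BKO (beta catenin knockout) and MKO (cMet knockout) livers, with 3 libraries a group. In each genotype, liver was taken at 1, 3 and 5 months, and at 8 months both tumour and the surrounding non-tumour liver were taken.

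The series' title places the losses in hepatocytes, the parenchymal cells of the liver, so other liver cells are not described as knocked out. The promoter or Cre line behind each deletion, the mouse strain, the DEN dose and the subunit of IKK that was deleted are not given in the sources used here. The sample titles mark the replicates as biological (bio_rep), without naming the animals behind them. Every p-value therefore measures the spread between these libraries, and whether part of it is technical was not tested. RNA came from whole tissue, and in such bulk samples fewer cells of a type and less RNA per cell cannot be told apart.

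Interferons are secreted warning signals of viral infection. Type I interferons bind a receptor on nearly all cells, the kinases Jak1 and Tyk2 are activated, and a complex of transcription factors that contains Irf9, called ISGF3, forms and enters the nucleus. ISGF3 binds the interferon-stimulated response element (ISRE) in the promoters of antiviral genes. In the liver, hepatocytes, endothelium and the resident macrophages called Kupffer cells all respond, and a low tonic expression of the targets is found without infection. The members cover several steps of this response. Irf7 is a transcription factor that amplifies interferon production, Usp18 removes Isg15 from proteins and blocks signalling at the receptor, and Isg15 is a ubiquitin-like modifier. Oas1a and Oas2 are synthetases of the 2-5A messenger that activates RNase L, and Oasl2 is their relative. Mx1 is a dynamin-like GTPase, Rsad2 (viperin) makes a chain-terminating nucleotide, and Ifit1 and Ifit3 bind foreign RNA.

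The ISRE was looked for in the members' promoters. Promoter windows of RefSeq (build GRCm38.p6), from 250 bases before to 50 after the gene start, were matched for 7 of the 10 members, all except Usp18, Oas2 and Mx1. They were searched on both strands for the core of the ISRE, a pair of GAAA separated by any 2 bases, whose matches may overlap each other. The core was present in 5 of those 7 windows, Isg15, Oas1a, Rsad2, Ifit3 and Ifit1. It was present in 3.44% of 32851 promoters. Of the 10181 genes in the expression table with a matched promoter, 3.84% had it in at least 1 of their promoters. The windows of Irf7 and Oasl2 do not hold these letters. The core TTCNNNGAA of the gamma-activated site, an element of interferon gamma targets, was in 1 of 7 member windows, that of Oas1a, against 8.3% of all promoters. The stretches around the ISRE cores are shown because they are a sequence feature that these 5 members share. They run 5′ to 3′ on the gene's strand with the cores in capitals, and a core on the opposite strand reads as a pair of TTTC.
Isg15, chr4:156200855-156200916, minus strand, 3 overlapping cores: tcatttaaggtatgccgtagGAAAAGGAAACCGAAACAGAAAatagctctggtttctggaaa
Oas1a, chr5:120907526-120907565, minus strand, 2 overlapping cores: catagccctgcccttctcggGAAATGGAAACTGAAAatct
Rsad2, chr12:26456543-26456592, minus strand, 1 core on the opposite strand: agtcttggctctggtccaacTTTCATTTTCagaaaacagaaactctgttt
Ifit3, chr19:34583353-34583436, plus strand, 2 cores on the opposite strand: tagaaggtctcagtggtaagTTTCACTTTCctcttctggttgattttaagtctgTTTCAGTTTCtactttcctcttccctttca
Ifit1, chr19:34640765-34640833, plus strand, 2 cores on the opposite strand: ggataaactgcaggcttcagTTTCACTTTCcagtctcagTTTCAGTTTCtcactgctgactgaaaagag

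All 10 members are protein-coding genes in the GENCODE M21 annotation of GRCm38. Irf7 lies at chr7:141262706-141266481 on the minus strand and Usp18 at chr6:121245906-121270917 on the plus strand. Their exons overlap Phrf1 and Gm44148 on the opposite strand, and whether reads were counted by strand is not given in the sources used here. Isg15 lies at chr4:156199424-156200818 on the minus strand, Mx1 at chr16:97447035-97462907 on the minus strand and Rsad2 at chr12:26442746-26456452 on the minus strand. The 2-5A synthetase family sits on chromosome 5, with Oasl2 at chr5:114896936-114912234 on the plus strand, Oas2 at chr5:120730333-120749853 and Oas1a at chr5:120896256-120907521, both on the minus strand. Ifit3 at chr19:34583531-34588731 and Ifit1 at chr19:34640871-34650009 are near neighbours on the plus strand. Oas1a has the near-identical neighbour Oas1g and Ifit3 the near-identical copy Ifit3b, so the division of reads within these pairs is uncertain.

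Library depth was 4676444 to 10863046 reads in sequencing group 1 and 6650086 to 20231121 in sequencing group 2. Levels below are reads divided by the library's size factor (normalised reads), and differences are on the deposited log2 scale, a variance-stabilised scale that understates the change of genes with few reads. A member was called when its limma p-value, adjusted over all 12966 genes, was under 0.05. Depth bears unevenly on the members. Over all libraries Irf7 had 203 to 1495 reads and Usp18 75 to 975, whereas Oas1a had 0 to 46 with a median of 6, Isg15 0 to 35 with a median of 8, and Mx1 0 to 20 with a median of 4. Mx1 was at 0 in 14 libraries and Oas1a in 5. All 7 hepatocyte markers were measured, Alb with a median of 571900 normalised reads, the most abundant of the list.

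The targeted gene Ptpn11 checks the SKO labels. Its normalised reads ran from 343 to 419.9 in WT and from 114.3 to 172.3 in SKO at 1 month, and its SKO mean was lower at every stage. There was 1 exception among the libraries. The library labelled SKO replicate 2 at 3 months had 375.1 normalised reads of Ptpn11, inside the WT range of 350.1 to 387.7, while the lowest SKO library of that stage had 107.1. Member differences tested with it are therefore given with and without it. Ikbkb, one of the IKK subunits, was lower in IKO at 1 month (205.5 ± 28.22 against 344.1 ± 57.69, SD, n = 4), as it was in SKO (231.7 ± 28.61), but not at 3 months (352.9 ± 18.58 against 340.4 ± 93.44). Ctnnb1 had 121.8 to 159.2 normalised reads in BKO and 123.9 to 136.5 in WT at 1 month, and Met 186.5 to 211.7 in MKO and 194.9 to 250.8 in WT. The Met ranges also overlapped at 3 months but were lower in MKO without overlap at 5 months (146.6 to 215.9 against 253.6 to 271.7), in 8-month non-tumour liver (148 to 163.8 against 187.8 to 273.3) and in tumours (117.9 to 152 against 173.2 to 226.5). At 5 months Met was below WT without overlap in BKO too (154.3 to 230.9), so the gap of that stage is not particular to MKO. Ctnnb1 overlapped at every stage. A 3′-end count can lie outside the deleted part of a gene, so an overlap does not check a label.

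In WT liver the interferon-stimulated genes stood highest in the youngest animals. All 10 members had their highest mean of the 4 non-tumour stages at 1 month, in the WT of both sequencing groups. The 1-month mean was 1.33 to 3.29 times the 8-month non-tumour mean in sequencing group 1 and 1.25 to 2.38 times in sequencing group 2. Of the 10, 4 fell between 1 and 8 months in sequencing group 1 (Usp18, Oasl2, Irf7 and Isg15), against 3.02% of all genes called lower, and 2 fell in sequencing group 2 (Usp18 and Oasl2), against 0.794%. The median difference of the members was -0.63 on the log2 scale in sequencing group 1 and -0.74 in sequencing group 2, beside -0.01 over all genes in both, and all 10 differences were negative in both.

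**Figure D1:**
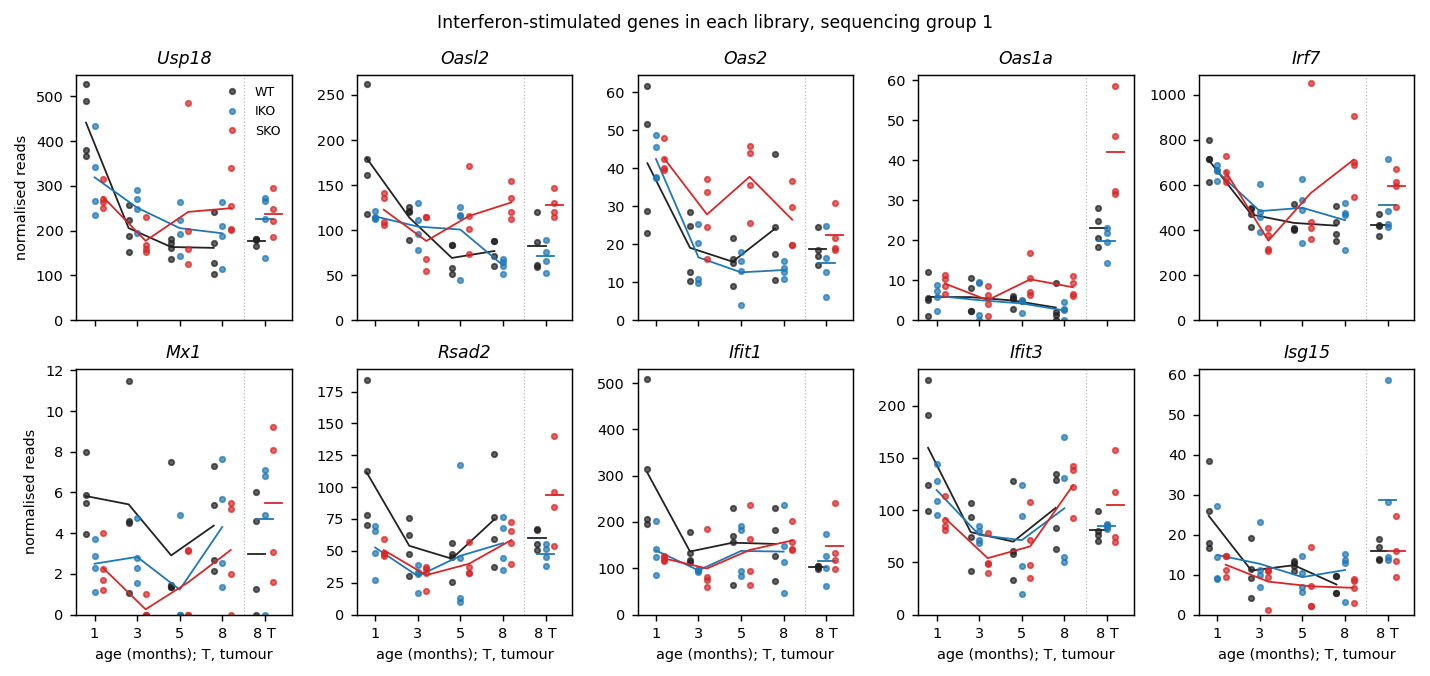
Normalised reads of the 10 members in the 60 libraries of sequencing group 1, by stage, for WT, IKO and SKO. The horizontal axis is age in months with tumours (T) set apart, points are libraries, lines join the non-tumour group means and short bars are tumour means, on linear axes from 0. In WT every member has its highest mean at 1 month among the non-tumour stages, and Oas1a stands highest in the tumours of all 3 genotypes.

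Usp18, the brake on the receptor, had the largest WT difference of the members on the deposited log2 scale. In the ratio of mean reads, Isg15 in sequencing group 1 (3.29 against 2.73 for Usp18) and Oas1a and Oasl2 in sequencing group 2 (2.38 and 2.37 against 2.35) stood above it. In sequencing group 1 its 4 WT libraries at 1 month had 367.4, 379.3, 489.7 and 527.2 normalised reads, and the 4 at 8 months had 241.7, 172.9, 128.6 and 103.2. Every 1-month library was above every 8-month library, and the fall was -1.35 ± 0.24 (log2 difference ± SE, adjusted p = 0.000177). The WT means were 440.9 at 1 month, 205.8 at 3, 163.4 at 5 and 161.6 at 8, so that most of the drop was already present at 3 months. The 1-month libraries of sequencing group 2 had 362.9, 584.2 and 524.2, and the 8-month libraries 264.7, 218.1 and 144. Again the ranges did not overlap, with a fall of -1.14 ± 0.25 (adjusted p = 0.0132). That call in sequencing group 2 was lost without WT replicate 2 or 3 at 1 month or replicate 3 at 8 months, with adjusted p up to 0.114, and with the compared groups fitted alone (0.068).

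Oasl2, an OAS relative with ubiquitin-like domains, fell as well. The 1-month WT libraries of sequencing group 1 had 117.8, 160.7, 261.8 and 178.6 normalised reads, and the 8-month libraries 88.37, 87.68, 60.29 and 71.06. The groups did not overlap, and the difference was -0.97 ± 0.20 (adjusted p = 0.00153). Sequencing group 2 had 193.6, 207.9 and 166.2 at 1 month and 98.84, 103.9 and 37.06 at 8 months, a difference of -1.10 ± 0.22 (adjusted p = 0.00707). WT replicate 3 at 8 months was the lowest library of that group. Leaving it out, or replicate 2 at 1 month, moved the adjusted p of Oasl2 above the threshold, to at most 0.0984, and fitting only the compared groups moved it to 0.102.

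The transcription factor Irf7 had 715, 612.6, 801.2 and 713.5 normalised reads in WT of sequencing group 1 at 1 month and 436.5, 506.6, 351 and 384.8 at 8 months. The ranges did not overlap and Irf7 fell by 0.73 ± 0.19 (adjusted p = 0.0117). In sequencing group 2 the ranges of Irf7 overlapped, with 543.4, 699.9 and 626.2 at 1 month and 503.4, 592.9 and 401.7 at 8 months, and the difference of -0.31 ± 0.20 was not called (adjusted p = 0.469). Isg15 had 17.83, 16.66, 25.88 and 38.36 at 1 month and 9.583, 9.743, 5.359 and 5.363 at 8 months in sequencing group 1. These ranges were apart, and Isg15 fell by 0.74 ± 0.22 (adjusted p = 0.0275), but 4 of the 8 leave-one-out fits lost the call (without replicate 3 or 4 of either stage, adjusted p up to 0.129). In sequencing group 2, where Isg15 had 4.594 to 10.79 normalised reads at 1 month, its difference was -0.20 ± 0.23 (adjusted p = 0.723).

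The remaining members were lower at 8 months without passing the test in either WT. Ifit1 had 195.1, 206.8, 507.6 and 314.5 normalised reads at 1 month and 230, 181.5, 72.35 and 126 at 8 months in sequencing group 1, with a difference of -0.89 ± 0.33 (adjusted p = 0.0859). Replicate 3 at 1 month was the highest of all libraries for Ifit1. Ifit1 differed in sequencing group 2 by -0.89 ± 0.36 (adjusted p = 0.194), Rsad2 by -0.94 ± 0.30 (adjusted p = 0.0977) and Oas2 by -0.79 ± 0.22 (adjusted p = 0.0533). Across both WT the differences of Ifit3 were -0.52 and -0.69, of Oas1a -0.32 and -0.29, and of Mx1 -0.14 and -0.32.

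**Figure D2:**
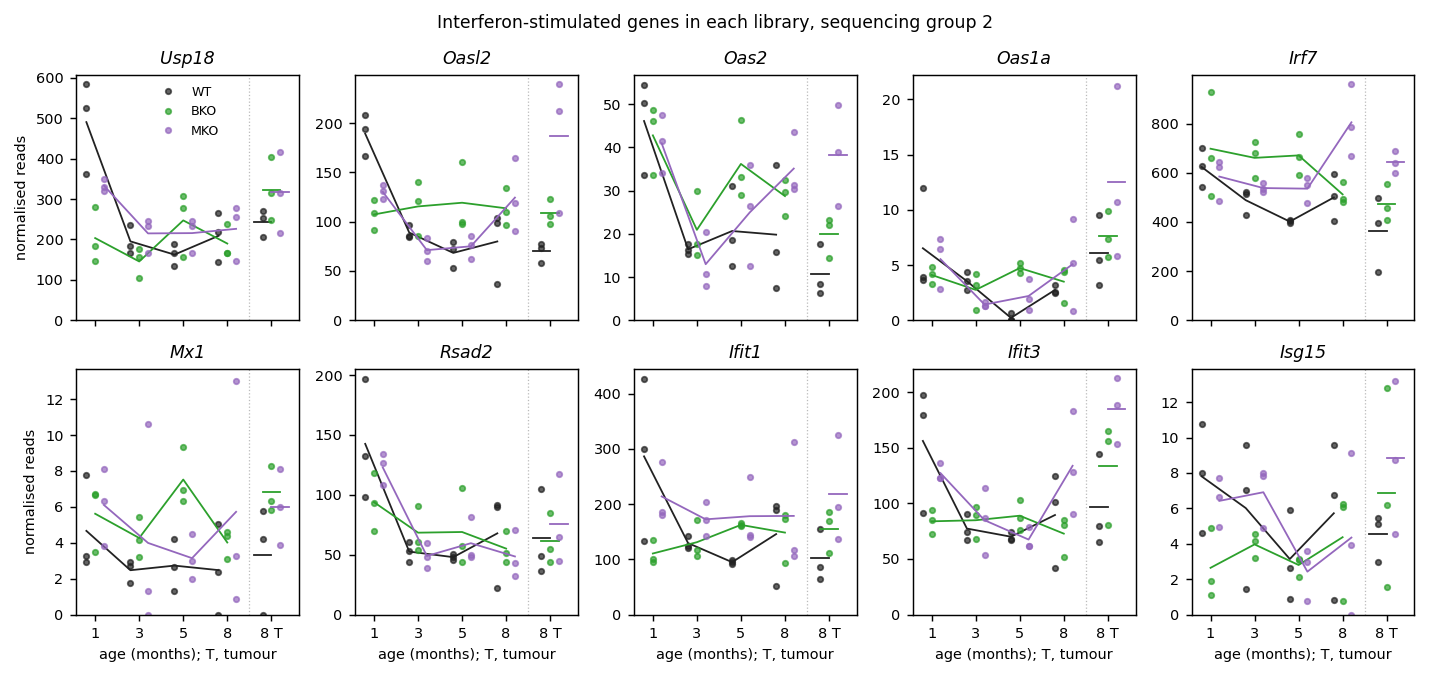
Normalised reads of the 10 members in the 45 libraries of sequencing group 2, by stage, for WT, BKO and MKO. The horizontal axis is age in months with tumours (T) set apart, points are libraries, lines join the non-tumour group means and short bars are tumour means, on linear axes from 0. WT has its highest non-tumour mean at 1 month for every member, while the lines of BKO for Usp18 and Oasl2 start lower.

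Cells that could carry the signal were checked through their markers. The 13 Kupffer cell and macrophage markers, all measured, summed to 3573 to 8149 normalised reads in WT of sequencing group 1 at 1 month and to 2247 to 6363 at 8 months. Those of sequencing group 2 summed to 5238 to 9108 and 3206 to 7255. No marker of the 13 was called in either WT comparison, with median differences of -0.46 and -0.55. Of 7 markers of plasmacytoid dendritic cells, the main producers of type I interferon, 5 were measured, among them Siglech with a median of 7.672 normalised reads, and none was called. Tcf4 had the highest median of that list, 234.3, and Il3ra the next, 19.18, so its sums mostly follow Tcf4. Some sums lay apart between the stages in either sequencing group 1 or 2, but not in both. Hepatocyte sums of sequencing group 2 were lower at 8 months (510200 to 853500 against 887800 to 1048000). So were its plasmacytoid dendritic cell sums (257.7 to 297.4 against 303.3 to 391.1). Its B cell sums were higher (1101 to 1275 against 532.2 to 987.7). Stellate cell sums of sequencing group 1 were lower (2030 to 2445 against 2661 to 2930). The part of these cells in the lower levels of the members was not tested. The 10 interferon genes on the list, Ifnb1 and Ifng among them, were not among the 12966 genes and are not analysed here.

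Other genes of the pathway were read from lists drawn up with earlier results of these data known. Of 46 other type I interferon targets measured, 2 fell and 1 rose in WT of sequencing group 1 (median -0.32), and 8 fell in sequencing group 2 (median -0.46). Among them were Epsti1 (-1.03 ± 0.20, adjusted p = 0.000793) in sequencing group 1, and in sequencing group 2 the helicase Ddx60 (-1.25 ± 0.24, adjusted p = 0.00457) and Trim34a (-0.92 ± 0.19, adjusted p = 0.00781). Of 20 interferon gamma targets, 4 fell in sequencing group 1, led by Psmb10, Irgm1 and Irf1, and none was called in sequencing group 2, with a median of -0.43 in both. Of 16 nucleic acid sensors and adaptors, 3 fell in sequencing group 1, namely Ddx58, the RIG-I sensor (-0.61 ± 0.15), the kinase Tbk1 (-0.54 ± 0.14) and Irf5 (-0.69 ± 0.19). Of 11 receptors and transducers, Ifngr2 fell there (-0.55 ± 0.15). None of the 10 inhibitors of the pathway was called in either WT.

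The knockouts did not all share the pattern of WT. In IKO 8 of 10 members had their highest stage mean at 1 month and 4 fell by 8 months (Oas2, Oasl2, Irf7 and Usp18), against 9.66% of all genes called lower. Oas2 had 48.83, 45.7, 37.73 and 37.47 normalised reads in IKO at 1 month and 13.74, 15.65, 10.87 and 12.61 at 8 months. Each 8-month library had less than the lowest 1-month library, and Oas2 fell by 0.91 ± 0.20 (adjusted p = 0.000722). Oasl2 had 112.4 to 121.1 at 1 month and 51.22 to 67.96 at 8 months, and fell by 0.71 ± 0.20 (adjusted p = 0.00836). The calls of Irf7 (-0.57 ± 0.19, adjusted p = 0.027) and Usp18 (-0.66 ± 0.24, adjusted p = 0.0406) in IKO were each lost in 4 of 8 leave-one-out fits: Irf7 without IKO replicate 1, 2 or 3 at 1 month or replicate 1 at 8 months, and Usp18 without replicate 1 or 2 of either stage (adjusted p up to 0.146 and 0.201). Irf7 was also lost under quantile normalization (0.0526) and Usp18 with the compared groups alone (0.0624). Beside this, 5 of 13 Kupffer cell and macrophage markers fell in IKO between these stages, and their sums were 4964 to 8204 at 1 month and 3286 to 4568 at 8 months. Sums of the plasmacytoid dendritic cell list went the other way, from 167.6 to 200.1 at 1 month to 218.4 to 288.2 at 8 months. Those of cholangiocytes were higher at 8 months too (158.8 to 409.1 against 90.17 to 126.9). The part of these cells in the result was not tested.

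In SKO 3 of 10 members were highest at 1 month and 6 at 8 months. No member was called between 1 and 8 months by limma, nor by limma-voom on recovered reads, with 1 member at an unadjusted p under 0.05, while 23.9% of all genes were called in that comparison. Usp18 had 250.6, 316.3, 270.3 and 263.4 normalised reads at 1 month and 204.1, 201.4, 339.1 and 255.9 at 8 months in SKO, with overlapping ranges (log2 difference -0.15 ± 0.24). Oasl2 had 141.1, 109, 135.2 and 105.4 at 1 month and 154.6, 120.4, 135.4 and 112.8 at 8 months (0.08 ± 0.20). In BKO no member was called by either method and none had an unadjusted p under 0.05, with 8.49% of all genes called. In MKO 1 member fell, Rsad2, against 6.02% of all genes called lower. It had 107.8, 126.6 and 133.9 at 1 month and 32.05, 70.41 and 43.08 at 8 months, without overlap (-1.05 ± 0.30, adjusted p = 0.019), and the call was lost without MKO replicate 2 or 3 at 1 month or replicate 1 at 8 months.

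**Figure D3:**
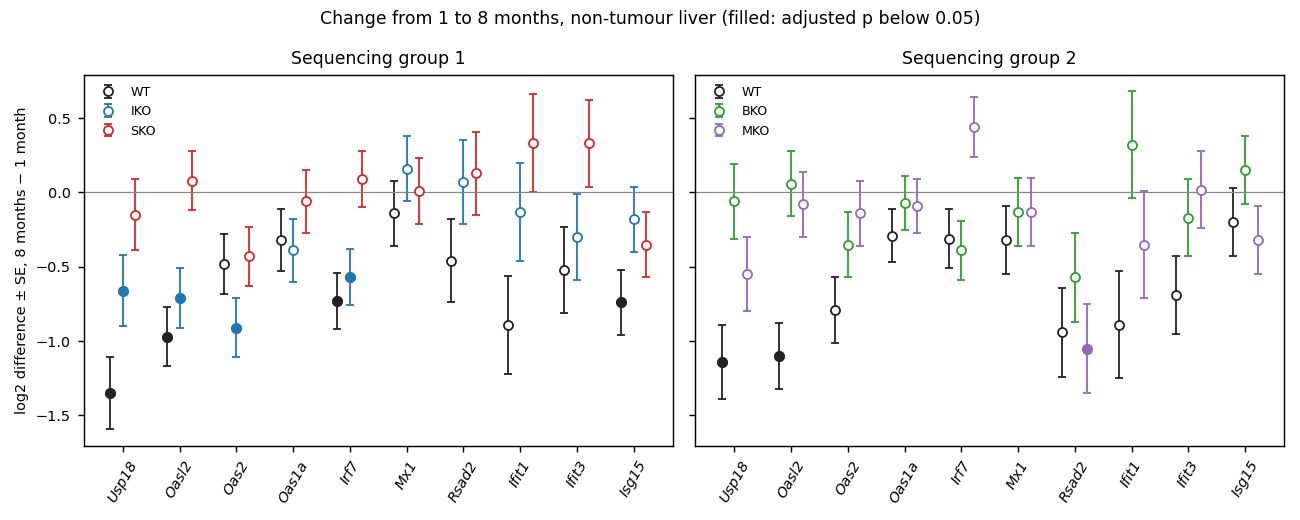
Difference between 8-month non-tumour and 1-month liver for each member in each genotype, on the deposited log2 scale, with standard errors; filled points are called. Both WT groups lie below 0 for all 10 members, and SKO has a median of 0.04.

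Whether the change from 1 to 8 months differed between a knockout and its WT was tested directly. In SKO the change of 2 members was higher than in WT, Usp18 by 1.20 ± 0.33 (adjusted p = 0.0269) and Oasl2 by 1.05 ± 0.28 (adjusted p = 0.0242), against 1.89% of all genes called higher. All 10 members had positive values, with a median of 0.71 beside 0.01 over all genes. Each of the 2 calls was lost in 4 of 16 leave-one-out fits, with adjusted p up to 0.0856 and 0.0674. The libraries were, for Usp18, SKO replicate 3 at 1 month and at 8 months and WT replicates 3 and 4 at 8 months, and for Oasl2, WT replicate 3 at either stage and SKO replicates 1 and 3 at 8 months. Of the other type I targets 6 were also called higher in this contrast and none lower, Sp100 (1.13 ± 0.22), Ifi207 (1.10 ± 0.30) and Ifi44 (1.06 ± 0.29) among them. The contrast shares its WT libraries with the WT comparison above. Kupffer cell and macrophage markers had a median of 0.61 in the same contrast, with 0 of 13 called, and their part was not tested.

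For the other knockouts the difference of changes was not called by limma or limma-voom. In BKO the smallest adjusted p was 0.0582 (Oasl2, 1.16 ± 0.32), with 3 members at an unadjusted p under 0.05 and 1.1% of all genes called. In MKO the smallest was 0.116 (Oasl2, 1.02 ± 0.32), with 3 members and 0.47%. In IKO it was 0.35 (Usp18, 0.69 ± 0.33), with 1 member and 0.1%. The medians were 0.41, 0.57 and 0.28. An F test of the genotype by stage interaction over all 4 non-tumour stages called Oasl2 (adjusted p = 0.0139) and Irf7 (adjusted p = 0.0283) in SKO, where 5.68% of all genes were called. The Oasl2 call was kept in all 32 leave-one-out fits, and without the library labelled SKO replicate 2 at 3 months the adjusted p values were 0.0181 and 0.0294. Irf7 was lost without WT replicate 3 or SKO replicate 4 at 8 months, with adjusted p up to 0.0615. No member passed the F test in IKO, BKO or MKO, where 0.0694%, 0.663% and 0.339% of all genes were called, with 1, 4 and 1 members at an unadjusted p under 0.05, and limma-voom called none.

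At 1 month the members called against WT were 1 in IKO, 2 in SKO, 1 in BKO and 0 in MKO, all of them lower. In BKO it was Usp18, the 1 member called lower against 2.53% of all genes. It had 184.1, 280.1 and 146 normalised reads in BKO and 362.9, 584.2 and 524.2 in WT, without overlap, a difference of -1.18 ± 0.25 (adjusted p = 0.00403) that was kept in all 6 leave-one-out fits. Oasl2 was lower as well in each BKO library, 91.1, 121.8 and 109 against 193.6, 207.9 and 166.2 in WT, but missed the threshold (-0.69 ± 0.22, adjusted p = 0.068). Ifit1 differed by -1.08 ± 0.36 (adjusted p = 0.0753) in BKO, where its libraries had 95.9, 100.7 and 134.8, and WT had 133.9, 426 and 298.9. Of the 10 members 8 were below WT, with a median of -0.46. Of the other type I targets 5 fell and none rose in BKO at 1 month, and of the interferon gamma targets 4 of 20 fell, among them Irf1 (-1.10 ± 0.24). Among 11 receptors and transducers Irf9, the DNA-binding subunit of ISGF3, fell by 0.67 ± 0.17. No Kupffer cell and macrophage marker was called there (median 0.12). Other marker sums lay apart from WT without overlap. They were higher in BKO for hepatocytes (1096000 to 1293000 against 887800 to 1048000 normalised reads), stellate cells (3763 to 4840 against 2516 to 3665), sinusoidal endothelium (2700 to 3540 against 2385 to 2558) and cholangiocytes (229.2 to 310 against 168.4 to 191). Those of B cells were lower (223.4 to 357.7 against 532.2 to 987.7). The B cell sums mostly follow Igkc, with a median of 935.9 over all libraries, the next being Bank1 at 26.78. Of all these lists 1 gene was called, the hepatocyte marker Tat, and their part in the result was not tested.

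In SKO at 1 month 2 members fell, against 7.34% of all genes called lower. Ifit1 had 125.3, 116.9, 116 and 125.8 normalised reads, all below the WT libraries at 195.1, 206.8, 507.6 and 314.5. The difference was -1.08 ± 0.33 (adjusted p = 0.0167), and 0.0994 without WT replicate 3, the highest of the group. Rsad2 had 59.61, 47.84, 46.18 and 48.44 against 78.24, 70.57, 184.1 and 112.9 in WT. Its ranges were apart too (-0.79 ± 0.28, adjusted p = 0.0451), but the call was lost in 6 of 8 leave-one-out fits, all except those without WT replicate 1 or 2, with adjusted p up to 0.206. Usp18 differed by -0.62 ± 0.24 (adjusted p = 0.0636), and its SKO libraries lay below all WT libraries. Among the 46 other type I targets 9 fell in SKO and none rose, and among the receptors and transducers Irf9 (-0.73 ± 0.15) and Jak1 (-0.52 ± 0.13) fell. Kupffer cell and macrophage markers moved the other way, with 2 of 13 higher and a median of 0.52; their sums were 7035 to 9160 in SKO and 3573 to 8149 in WT. Of 7 hepatocyte markers 4 fell at the same time, with sums of 247100 to 327500 in SKO and 673900 to 876300 in WT. Markers of sinusoidal endothelium had a median of -0.26, with 1 of 8 lower, Lyve1. Sums of the plasmacytoid dendritic cell list, with Tcf4 its most abundant gene, were below WT without overlap (156.8 to 212.4 against 218.1 to 346). The part of these cells in the result was not tested.

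In IKO at 1 month only Ifit1 among the members fell, against 4.75% of all genes called lower. It had 124.3, 201.3, 85.75 and 142.2 normalised reads, of which 1 library overlapped with the WT range. The difference of -0.96 ± 0.33 (adjusted p = 0.0499) was lost in 6 of 8 leave-one-out fits, all except those without WT replicate 1 or IKO replicate 2, with adjusted p up to 0.206, and with the compared groups alone (0.0787). Rsad2 had 65.47, 69.17, 27.44 and 48.04, all below the WT libraries, with -0.79 ± 0.28 (adjusted p = 0.0655). Sums of the plasmacytoid dendritic cell list lay below WT in IKO too, without overlap (167.6 to 200.1 against 218.1 to 346 normalised reads). The part of these cells in the result was not tested. In MKO at 1 month no member was called by limma or limma-voom, where 0.185% of all genes were. One member had an unadjusted p under 0.05, Oasl2 (-0.46 ± 0.22, adjusted p = 0.589), whose MKO libraries at 122.6, 130.8 and 137.1 were below every WT library. Usp18, Oasl2, Ifit1, Ifit3, Rsad2 and Isg15 had negative differences in all 4 knockouts at this stage; knockouts of 1 sequencing group share their WT libraries.

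**Figure D4:**
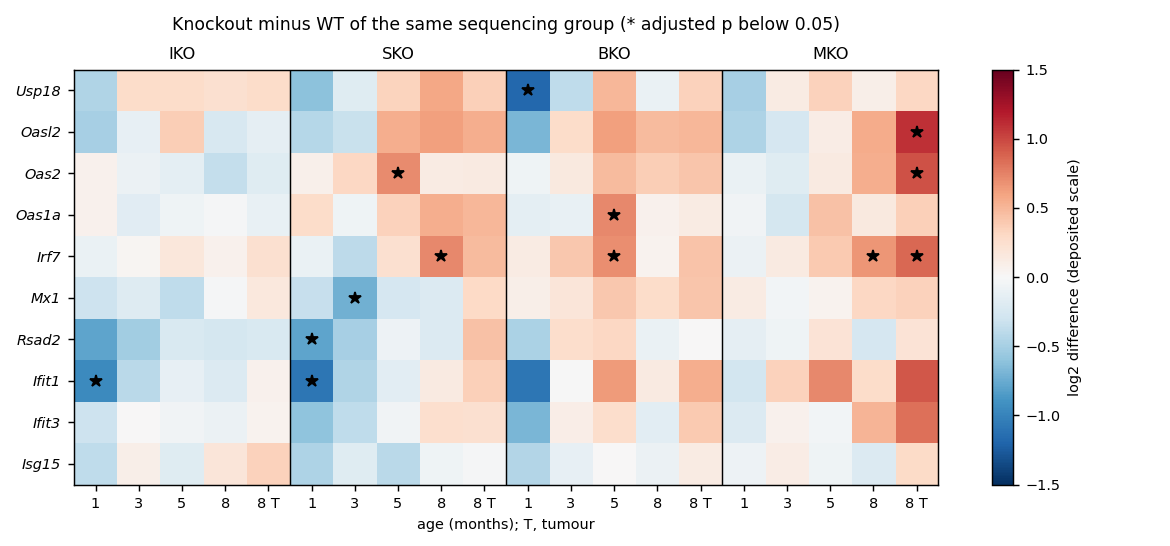
Difference between each knockout and the WT of its own sequencing group for the 10 members at each stage and in tumours (T), as colour on the deposited log2 scale, red where the knockout is higher. A star marks a called difference. Most values at 1 month are below 0, and those of BKO and of MKO tumours are all above 0.

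At 3 months 1 member was called in SKO, Mx1, against 2.2% of all genes called lower. With all libraries labelled SKO included, 9 of 10 differences were negative, with a median of -0.35. Irf7 had 307.8 to 410.6 normalised reads in SKO and 411.6 to 498.9 in WT, without overlap, but was not called. Mx1 was at 0 in the libraries labelled SKO replicates 2, 3 and 4 and at 1.021 normalised reads in replicate 1, against 4.503, 11.5, 4.598 and 1.056 in WT. The difference of -0.72 ± 0.22 (adjusted p = 0.0391) became -0.69 (adjusted p = 0.0611) without the library labelled SKO replicate 2. It was also lost without SKO replicate 3 or 4 and without WT replicate 1, 2 or 3, with adjusted p up to 0.18, and by limma-voom and with the compared groups alone. At 3 months no member was called in IKO, BKO or MKO by limma or limma-voom, where 0.201%, 1.54% and 0.0231% of all genes were, with 0, 1 and 0 members at an unadjusted p under 0.05.

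At 5 months 1 member rose in SKO and 2 in BKO. In SKO 5 of 10 differences were positive, with a median of 0.10. Oas2 was the 1 member called higher in SKO, against 2.61% of all genes called higher. It had 44.04, 25.49, 35.52 and 45.95 normalised reads in SKO and 15.07, 21.51, 16.09 and 8.969 in WT, without overlap, a difference of 0.71 ± 0.20 (adjusted p = 0.0215). The call was lost without WT replicate 4 or SKO replicate 1 or 4, with adjusted p up to 0.0964. Sums of hepatocyte markers were lower in SKO without overlap (374000 to 634700 against 882600 to 966400), and their part in the result was not tested. SKO replicate 4 stood apart at this stage, with 1053 normalised reads of Irf7 against 362.3 to 434.3 in the other SKO libraries, and 484.9 of Usp18 against 125.5 to 198.6. In BKO 2 members rose, against 3.51% of all genes called higher. Oas1a had 5.18, 4.728 and 4.271 in BKO and was at 0, 0 and 0.6554 in WT (0.72 ± 0.18, adjusted p = 0.0113), and Irf7 had 663, 591.8 and 756.4 against 393.5, 408 and 402.4 (0.70 ± 0.20, adjusted p = 0.0318).

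The ranges of both genes were apart, yet the Irf7 call held in only 1 of 6 leave-one-out fits, that without BKO replicate 2 (adjusted p up to 0.139). The Oas1a call was lost without WT replicate 1 or 2, with adjusted p up to 0.0605. The median of the 10 members was 0.49 in BKO at 5 months. Kupffer cell and macrophage markers had a median of 0.58 there with 1 of 13 called, and sums of 6135 to 8511 in BKO and 3114 to 5867 in WT. The sums of other lists were higher in BKO without overlap too, for cholangiocytes (384.3 to 468.1 against 124.8 to 133.7, 3 of 5 genes called), stellate cells (3775 to 4969 against 2472 to 2758, 3 of 8), B cells (1171 to 3274 against 319.8 to 554.1, 1 of 7) and neutrophils (11.03 to 22.79 against 3.933 to 7.584, 1 of 4). The same held, by narrower gaps, for plasmacytoid dendritic cells (294.2 to 316.8 against 223.3 to 288.4, 1 of 5) and for T and NK cells (75.65 to 81.67 against 42.98 to 75.23, 0 of 8). Sums of B cells mostly follow Igkc, and those of plasmacytoid dendritic cells Tcf4. The part of these cells was not tested. Of the other type I targets 4 rose and none fell, Oasl1 (1.23 ± 0.29) and Ifi27l2a (1.18 ± 0.28) among them, and Stat2 rose by 0.46 ± 0.13. No member was called at 5 months in IKO or MKO by either method, where 1.45% and 0.0463% of all genes were, with 0 and 1 members at an unadjusted p under 0.05.

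In non-tumour liver at 8 months Irf7 rose in SKO and in MKO. In SKO it was the 1 member called, against 2.54% of all genes called higher. Its libraries had 549, 690.4, 703.4 and 905.1 normalised reads against 436.5, 506.6, 351 and 384.8 in WT, without overlap (0.72 ± 0.19, adjusted p = 0.0168), and the call was lost without WT replicate 3 or SKO replicate 4 (adjusted p up to 0.0752). Oasl2 libraries of SKO also lay above all WT libraries, 154.6, 120.4, 135.4 and 112.8 against 88.37, 87.68, 60.29 and 71.06, with 0.62 ± 0.20 (adjusted p = 0.0607). In MKO Irf7 was again the only member called, against 3.51% of all genes called higher, with 787.4, 961 and 666.4 against 503.4, 592.9 and 401.7 in WT (0.66 ± 0.20, adjusted p = 0.0446). That call was lost in 4 of 6 leave-one-out fits, without WT replicate 1 or 3 or MKO replicate 1 or 2 (adjusted p up to 0.262), and under quantile normalization, by limma-voom and with the compared groups alone. No member was called in IKO or BKO by either method, where 0.201% and 4.91% of all genes were, with 0 and 1 members at an unadjusted p under 0.05.

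Markers of macrophages and of other cells also differed from WT at this stage. In SKO at 8 months 10 of the 13 Kupffer cell and macrophage markers rose, with a median of 1.13 and sums of 7959 to 8790 against 2247 to 6363 in WT. In MKO 5 of 13 rose, with a median of 1.16. Their sums were 8147 to 15480 in MKO and 3206 to 7255 in WT. Other sums were higher in MKO without overlap too, for sinusoidal endothelium (2917 to 3366 against 2204 to 2400) and cholangiocytes (216 to 616.7 against 147 to 188.7). Of 7 hepatocyte markers 2 fell in SKO (median -0.81). No macrophage marker was at 0 in the median of the libraries, the lowest being Adgre1 with 8.161 normalised reads. The part of these cells in the Irf7 result was not tested.

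With the 4 non-tumour stages averaged, 4 members were called in SKO, 2 higher against 12% of all genes and 2 lower against 10.9%. Oas2 (0.30 ± 0.10, adjusted p = 0.0213) and Oas1a (0.27 ± 0.10, adjusted p = 0.0488) were higher, and Mx1 (-0.38 ± 0.11, adjusted p = 0.0081) and Rsad2 (-0.39 ± 0.14, adjusted p = 0.0359) lower. Without the library labelled SKO replicate 2 at 3 months the differences were 0.28, 0.28, -0.37 and -0.40, and Oas1a was no longer called (adjusted p = 0.0515). The Oas2 and Mx1 calls were kept in all 32 leave-one-out fits. Rsad2 was lost in 9, those without WT replicate 3 at 1, 3 or 5 months, WT replicate 4 or SKO replicate 1 at 3 months, SKO replicate 1 or 4 at 5 months, or WT replicate 1 or SKO replicate 3 at 8 months (adjusted p up to 0.0781). Oas1a was lost in 22, and under quantile normalization. It was kept only without WT replicate 3 or SKO replicate 2 at 1 month, WT replicate 3 or 4 or SKO replicate 1 at 3 months, SKO replicate 1 or 3 at 5 months, or WT replicate 4 or SKO replicate 1 or 3 at 8 months (adjusted p up to 0.105 in the others). In IKO Rsad2 was lower (-0.45 ± 0.14, adjusted p = 0.0334) against 5.17% of all genes called lower, and the call was kept in 23 of 32 such fits. It was lost without WT replicate 3 at 1, 3 or 5 months, WT replicate 1 at 8 months, IKO replicate 3 at 1 month, IKO replicate 1 at 3 or 8 months, or IKO replicate 1 or 3 at 5 months (adjusted p up to 0.0706), and with the compared groups alone (0.089). In BKO Irf7 was higher (0.32 ± 0.10, adjusted p = 0.0221) against 10.6%, and was lost only without BKO replicate 2 at 1 month (adjusted p = 0.0576). In MKO no member was called by limma or limma-voom, with 1 at an unadjusted p under 0.05 and 2.71% of all genes called.

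Between tumours and the liver around them, Oas1a was the member that changed in all 3 genotypes of sequencing group 1. In WT of sequencing group 1, Oas1a had 18.41, 28.03, 24.8 and 20.51 normalised reads in tumours and 2.129, 1.218, 0 and 9.385 in non-tumour liver. The tumour mean was 7.21 times the non-tumour mean, and Oas1a rose by 1.19 ± 0.21 (adjusted p = 5.25e-06) as the 1 member called, against 22.9% of all genes called higher. In IKO it had 14.41, 23.09, 21.76 and 19.53 in tumours and 4.581, 0, 2.718 and 2.522 outside (1.10 ± 0.21, adjusted p = 4.25e-05), against 18.2%. In SKO it had 32.32, 31.5, 46.12 and 58.48 and 5.946, 9.344, 6.605 and 11.13 (1.16 ± 0.21, adjusted p = 9.34e-06), against 21%. No tumour library overlapped a non-tumour library of its genotype, and the 3 calls were kept in all leave-one-out fits. The sums of macrophage markers were 2889 to 4260 in the WT tumours and 2247 to 6363 in the liver around them. They overlapped in IKO too, but were lower in SKO tumours (5259 to 6381 against 7959 to 8790). Sums of hepatocyte markers were 1451000 to 1910000 in the WT tumours and 301600 to 719000 outside. They were higher without overlap in IKO tumours (1226000 to 1557000 against 436000 to 812500) and SKO tumours (967300 to 1705000 against 275700 to 413600). In WT tumours cholangiocyte sums were higher too (740.3 to 3835 against 139.5 to 462.5). Neutrophil sums were lower there (13.27 to 20.02 against 23.42 to 410.2). The part of these cells in the result was not tested.

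The tumour difference of Oas1a was not called in sequencing group 2. WT tumours had 3.208, 5.478 and 9.562 normalised reads against 2.513, 3.196 and 2.527 (0.28 ± 0.18, adjusted p = 0.255). BKO tumours had 9.881, 7.37 and 5.695 against 4.363, 1.554 and 4.573 (0.34 ± 0.18, adjusted p = 0.203), and MKO tumours 10.67, 21.19 and 5.832 against 0.8662, 9.127 and 5.221 (0.48 ± 0.18, adjusted p = 0.0523). WT and BKO tumours were above their non-tumour libraries without overlap, and MKO tumours were not. The sequencing groups were fitted apart, so the difference between them was not tested. No member was called between tumour and non-tumour liver in WT, BKO or MKO of sequencing group 2 by limma, where 27.1%, 14.7% and 17.3% of all genes were. Unadjusted p was under 0.05 for 1, 2 and 2 members, and limma-voom called 1 member lower in WT and none in BKO or MKO.

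**Figure D5:**
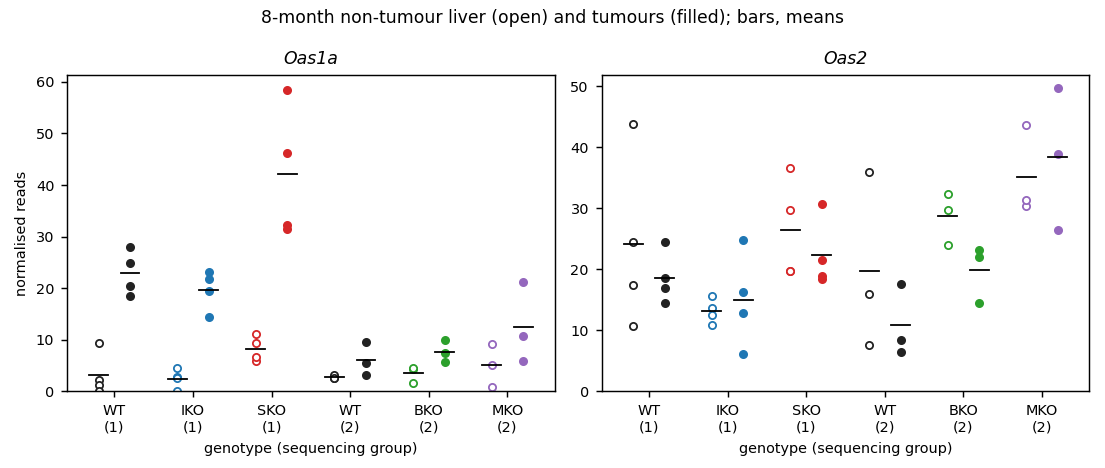
Normalised reads of Oas1a and Oas2 in 8-month non-tumour liver (open points) and tumours (filled points) of each genotype, 1 point a library, with bars at the means and the sequencing group in brackets. Oas1a tumour libraries lie above all non-tumour libraries of their genotype in WT, IKO and SKO of sequencing group 1, while those of Oas2 overlap.

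The rest of the OAS family was looked at after the values of Oas1a were seen. The near-identical neighbour Oas1g rose with it. Its differences in WT, IKO and SKO of sequencing group 1 were 0.94 ± 0.20, 1.03 ± 0.20 and 0.86 ± 0.20, and in WT and BKO of sequencing group 2 they were 0.51 ± 0.19 (adjusted p = 0.0363) and 0.92 ± 0.19, all called. In MKO the Oas1g difference was 0.38 ± 0.19 (adjusted p = 0.158). The relatives Oas1b, Oas3 and Oasl1 were not called in any of the 6 tumour comparisons, nor were Oas2 and Oasl2, and Oas1c was called only in MKO (0.41 ± 0.14, adjusted p = 0.0483). Isg15 rose in IKO tumours, with 14.41, 58.62, 13.6 and 28.07 normalised reads against 3.054, 12.8, 13.59 and 15.13 (0.61 ± 0.22, adjusted p = 0.0246), with overlapping ranges. That call was lost without IKO replicate 1 of the non-tumour liver or tumour replicate 2 or 4 (adjusted p up to 0.234), and under quantile normalization, by limma-voom and with the compared groups alone. No member's tumour difference differed between a knockout and WT: limma and limma-voom called 0 of 10 in all 4 knockouts, none had an unadjusted p under 0.05, and 0.123%, 0.0308%, 0.0308% and 0.131% of all genes were called in IKO, SKO, BKO and MKO.

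Of 46 other type I targets 7 were higher in tumours in WT of sequencing group 1, where 22.9% of all genes were, and 9 were called in either direction in WT of sequencing group 2, where 27.1% were. The call with the smallest p among them in both was Ifi27l2b, which rose by 3.20 ± 0.38 and 3.68 ± 0.37 in the 2 WT groups, from 148.7 to 587.2 normalised reads in non-tumour liver to 2123 to 2799 in tumours of sequencing group 1. Ifngr1, a chain of the interferon gamma receptor, rose in tumours of all 6 genotype groups, by 1.65 ± 0.17, 1.44 ± 0.17 and 1.37 ± 0.17 in WT, IKO and SKO and by 1.56 ± 0.23, 0.70 ± 0.23 and 0.74 ± 0.23 in WT, BKO and MKO.

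MKO tumours stood above WT tumours in the members. Of the 10, 3 rose, Oasl2, Oas2 and Irf7, against 2.99% of all genes called higher, and all 10 differences were positive with a median of 0.59 beside 0.00 over all genes. Oasl2 had 212.5, 239.1 and 108.9 normalised reads in MKO tumours and 73.78, 58.43 and 77.69 in WT tumours (1.10 ± 0.22, adjusted p = 0.0044). Oas2 had 26.43, 49.76 and 38.88 against 6.416, 17.65 and 8.367 (0.95 ± 0.22, adjusted p = 0.0111), and Irf7 had 597.3, 688.8 and 638.9 against 197, 396.9 and 497.8 (0.86 ± 0.20, adjusted p = 0.0118). The ranges of all 3 were apart. Oas2 and Irf7 were lost without WT tumour replicate 1 or MKO tumour replicate 2 (adjusted p up to 0.0702 and 0.138), and all 3 calls were lost when only the tumour groups compared were fitted (adjusted p of 0.275, 0.271 and 0.418).

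Of the other type I targets 6 rose and none fell in MKO tumours, among them Ifi27l2a (1.24 ± 0.28), Epsti1 (1.03 ± 0.23) and the nuclear body protein Sp100 (0.75 ± 0.17). No receptor, transducer, sensor, inhibitor or interferon gamma target was called. Of 13 Kupffer cell and macrophage markers 9 rose in the same tumours, with sums of 7472 to 14240 in MKO and 3262 to 3778 in WT. Of 5 cholangiocyte markers 2 rose (median 1.08) and of 8 stellate cell markers 1 (median 0.66), while the sums of both lists overlapped with WT tumours. Sums of T and NK cell markers were higher in MKO tumours without overlap (55.28 to 89.46 against 33.48 to 47.48). The part of these cells in the result was not tested. In tumours of SKO, IKO and BKO no member was called against WT tumours by limma or limma-voom, where 1.72%, 3.6% and 0.548% of all genes were. Unadjusted p was under 0.05 for 3, 0 and 2 members, and the smallest adjusted p were 0.173, 0.439 and 0.392. Of the 10 differences 9, 6 and 10 were positive in these tumours, with medians of 0.36, 0.06 and 0.41. Positive differences of all 10 members were thus not particular to MKO tumours, and BKO and MKO share their WT libraries.

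The 10 members were averaged on the deposited log2 scale in each of the 30 groups (mean ± SD). Sequencing group 1 ran from 6.11 ± 0.13 (n = 4) in SKO at 3 months to 6.98 ± 0.29 (n = 4) in WT at 1 month. Without the library labelled SKO replicate 2, SKO at 3 months was at 6.06 ± 0.11 (n = 3). Sequencing group 2 ran from 6.08 ± 0.03 (n = 3) in WT at 5 months to 6.95 ± 0.28 in WT at 1 month. MKO tumours were next to its top at 6.84 ± 0.24. The sequencing groups were fitted apart, and no test compared these averages. The members did not all vary together. Over the 60 and 45 libraries together, the correlation of a member with the mean of the other 9 was 0.75 for Oasl2 and Ifit3, 0.71 for Ifit1 and 0.69 for Usp18, down to 0.41 for Oas1a and Isg15 and 0.38 for Mx1, the members with the fewest reads. With group means removed, the 45 pairs of members correlated at -0.01 to 0.78, with a median of 0.30.

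Genes outside the list were ranked by their correlation with the mean of the members' standardised values, over all libraries centred within sequencing group, which share groups and library depth. The nearest were Rtp4 (r = 0.73, Spearman rho = 0.64), Fcgr1 (0.72 and 0.72), Zbp1 (0.71 and 0.71), Ifi27l2a (0.68 and 0.70), Pld4 (0.68 and 0.70), Parp14 (0.68 and 0.65), Ifi44 (0.67 and 0.65) and Asb2 (0.66 and 0.60). Rtp4 is a chaperone of receptors, Fcgr1 a high-affinity antibody receptor of macrophages and Zbp1 a sensor of Z-form nucleic acids. Within the sequencing groups the r of Rtp4 was 0.70 and 0.77, and without the 2 libraries farthest from the median it was 0.68. For Parp14 the r within the sequencing groups was 0.78 and 0.54.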

How the data were processed

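Reads came from the 3′ ends of polyadenylated liver RNA (the MAPS protocol) on an Illumina HiSeq2000, per the labels' protocols. STAR 2.7.10a, HTSeq 2.0.2, DESeq2 1.32.0 and GRCm38/mm10 are named in the submitters' processing notes, without their roles. The authors deposited 1 table of log2-scale values, which has a floor of 3.8289 at 0 reads. Undoing the transform gave whole reads (within 0.05) for 100.0% of values, from which reads and normalised reads were taken. No 2 of the 105 libraries were alike within sampling noise (smallest chi-square per gene 4.924).

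Each sequencing group was fitted in R 4.3.3 with limma 3.58.1 (1 mean per group, trend), with Benjamini-Hochberg adjustment over 12966 genes in each of 48 comparisons. All 10 members are named in all groups, and other genes come from fixed lists, named where they passed the test, up to 3 a list and comparison, or with a measure of likeness. The members and lists were chosen with earlier results of these data known. Simulated data with 12966 genes carried steps of log2 2 or log2 1.5 on the deposited scale, in genes clear of its floor. Steps of log2 2 were recovered in 88% of genes for IKO against WT at 1 month and 91% for WT of sequencing group 1 at 8 months against 1. They were recovered in 89% for BKO against WT at 1 month and 83% for WT of sequencing group 2. Steps of log2 1.5 were recovered in 40%, 48%, 36% and 40%. In genes with few reads such a step is a larger change in reads. These shares therefore do not hold for a 2-fold change of reads in Mx1, Oas1a or Isg15. Alternatives were a filter on a mean value of at least 5, quantile normalization, limma-voom on recovered reads, the compared groups alone, the replicate number as a block and each library left out. Same-numbered libraries deviated together in 2 of 32 pairs of groups and not in the other 30, so the numbers were not taken as pairing. One gene of the pathway lists is not reported here.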

Additional observations from a re-analysis of the deposited data

Results flagged for a closer look

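Among the 4-library groups, 150 member-by-group sets were checked for a library far from the other 3, and 12 were found where chance alone gives about 7.5. Oasl2 was low at 88.52 normalised reads in WT replicate 2 at 3 months (others 120.4 to 125.3) and 44.92 in IKO replicate 1 at 5 months (others 115.3 to 125.6). Irf7 was high at 513.7 in WT replicate 1 at 5 months (others 398.7 to 410.2) and at 1053 in SKO replicate 4 at 5 months (others 362.3 to 434.3). Oas1a was low at 2.868 in WT replicate 2 (others 5.363 to 5.98) and at 1.859 in IKO replicate 3 (others 4.883 to 5.186), both at 5 months. Isg15 was low at 1.231 in SKO replicate 3 at 3 months (others 9.484 to 11.23) and at 3.054 in non-tumour IKO replicate 1 at 8 months (others 12.8 to 15.13). Mx1, at a few reads a library, was at 1.021 in SKO replicate 1 at 3 months (others 0), 7.475 in WT replicate 4 at 5 months (others 1.341 to 1.434), 4.893 in IKO replicate 2 at 5 months (others 0) and 0 in IKO tumour replicate 1 (others 4.881 to 7.106).

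A difference between SKO and WT in how a member changed was found by test in 4 results. Oasl2 and Irf7 passed the test of the SKO by stage interaction, with adjusted p of 0.0139 and 0.0283. The change from 1 to 8 months was higher in SKO by 1.20 on the log2 scale for Usp18 and by 1.05 for Oasl2.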

How the results depend on the processing

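Of 48 comparisons, the number of members called stayed within 1.5 times in 41 under a filter on a mean value of at least 5, in 44 under quantile normalization, in 43 under limma-voom on recovered reads and in 34 when only the compared groups were fitted, and no called member value, 31 to 38 of them a setting, reversed its direction. With the replicate block, where numbers were taken as a pairing, it was the same in 48 of 48, and 38 of 38 member calls were kept. Under the filter, which removes genes with few reads such as Oas1a and Mx1, the count fell from 1 to 0 for SKO at 3 months and for tumour against non-tumour liver in WT of sequencing group 1 and SKO, from 4 to 2 for SKO over 4 stages, from 2 to 1 for IKO tumours against non-tumour liver and BKO at 5 months, and was 1 rather than 0 for the BKO change from 1 to 8 months. Under quantile normalization it was 2 rather than 1 for SKO at 8 months, 1 rather than 2 for IKO tumours, 1 rather than 0 for the BKO interaction and 0 rather than 1 for MKO at 8 months. Under limma-voom it was 2 rather than 1 for IKO at 1 month, 1 rather than 2 for IKO tumours, 0 rather than 1 for SKO at 3 months and MKO at 8 months, and 1 rather than 0 for tumours of WT in sequencing group 2. With only the compared groups it was 0 for IKO at 1 month and over 4 stages, SKO at 3 months, MKO at 8 months, MKO against WT tumours (3 in the fit of all groups) and WT of sequencing group 2 between 1 and 8 months (2 in the fit of all groups). It was 1 for IKO tumours against non-tumour liver, for SKO between 1 and 8 months and for MKO over 4 stages, and 2 for SKO at 8 months, WT of sequencing group 1 and SKO tumours against non-tumour liver, BKO at 1 month and BKO over 4 stages. The cause was not tested beyond these settings.

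Leaving out 1 library at a time, the count ranged from 0 to 2 for IKO at 1 month and over 4 stages, SKO at 1 and at 8 months, BKO at 5 months and over 4 stages, MKO at 8 months and MKO tumours against non-tumour liver. It ranged from 0 to 1 for SKO at 3 and at 5 months, the BKO interaction, the BKO change, tumours against non-tumour liver in WT of sequencing group 2 and BKO, and MKO between 1 and 8 months. It ranged from 2 to 5 for SKO over 4 stages, 1 to 3 for the SKO interaction, 0 to 3 for the SKO change, 3 to 5 for WT of sequencing group 1 and 0 to 3 for WT of sequencing group 2 between 1 and 8 months, and 2 to 4 for IKO. It was 1 to 2 for IKO and SKO tumours against non-tumour liver, 1 to 1 for those of WT in sequencing group 1, 1 to 3 for BKO at 1 month and 1 to 4 for MKO against WT tumours. In the other comparisons it was 0 in every fit. Depth limits Mx1, Oas1a and Isg15, whose median was at most 8 reads a library.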
